A study of Homo sapiens with 9 samples.

Results

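The 9 genes described here encode the enzymes that make serine and move its one-carbon unit through folate, and they were found by symbol among the 19930 genes of the deposited table. They are PHGDH, PSAT1 and PSPH of serine synthesis, SHMT1 and MTHFD1 of the cytosolic folate pathway, and SHMT2, MTHFD2, MTHFD1L and ALDH1L2 of the mitochondrial one. The genes were selected on the difference between the LINC00673 siRNA libraries and the control libraries in these same data, so that difference is described for them below and carries no test. RNA was sequenced in 9 libraries of 3 groups with 3 libraries each, labelled as MDA-MB-453, an established human breast cancer cell line. The groups were control siRNA (si-NC) and 2 knockdowns of LINC00673, a long noncoding RNA, here called siRNA 1 and siRNA 2 after the number in the library names, since the labels call both only a knockdown. All 9 received a siRNA with the same lipid reagent, and the protocol gives 48 h after transfection as the time of harvest for qRT-PCR. Within a group the libraries are named unsuffixed, r1 and r2, and nothing says whether they came from separate cultures, so P values measure only the spread between these libraries.

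Serine is made in the cytosol from a glycolytic intermediate. PHGDH oxidizes 3-phosphoglycerate, PSAT1 transfers an amino group from glutamate to the product, and PSPH removes the phosphate. Serine hydroxymethyltransferases then split serine into glycine and a one-carbon unit carried by tetrahydrofolate, SHMT1 in the cytosol and SHMT2 in mitochondria. MTHFD2 and MTHFD1L carry that unit to formate in mitochondria, MTHFD1 handles the same steps in the cytosol in a single protein, and ALDH1L2 oxidizes mitochondrial formyl-tetrahydrofolate to carbon dioxide with formation of NADPH. The pathway feeds the synthesis of purines, thymidylate and glutathione, and its mitochondrial enzymes are known to be abundant in many proliferating and tumor cells. ATF4, a transcription factor of the amino acid response, is known to drive several of these genes.

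The values are FPKM, fragment counts scaled to the length of the gene and to all mapped fragments. Comparisons between genes are thus per length and depend on the length assigned to each gene. The longest transcripts of MTHFD1 and MTHFD2 were listed with the FPKM at 3448 and 2188 bases. Their longest protein-coding transcripts in GENCODE had 6814 and 4456. The depth estimated from the steps between low values was 23.3 to 27.2 M fragments per library, so PSAT1 rested on 1249 to 6144 fragments, SHMT1 on 542 to 688 and ALDH1L2 on 61 to 300. Of the 9 luminal markers, KRT8, KRT18, KRT19 and EPCAM lay at 287 FPKM or more in every library, FGFR4 at 17.9 to 33.1 and ERBB2 at 11.8 to 17.8. FOXA1 and GATA3, transcription factors that mark luminal cells, reached at most 0.04 and 0.88 FPKM, so these defining markers of the labelled line were absent or near 0 in these libraries. The 7 markers of other cell types summed to 4.41 to 5.26 FPKM with si-NC, 6.37 to 6.91 with siRNA 1 and 6.25 to 8.20 with siRNA 2, mostly COL1A1 (3.49 to 7.08), and ESR1 and PTPRC stayed at or below 0.07. Whether the RNA came from the labelled line was not tested, nor was the part of these markers in the results.

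A search of promoters is shown because most of the genes moved together. The RefSeq promoter table (GRCh38.p14, 250 bases before to 50 after a start) held 9 windows of 6 of the genes, PHGDH, PSAT1, SHMT1, MTHFD1, MTHFD2 and MTHFD1L. PSPH, SHMT2 and ALDH1L2 had no entry. Both strands were searched for TGATGNAA, the CARE element bound by ATF4 with C/EBP proteins, for CACGTG, the E-box bound by MYC, and for TGACNNNGC, the antioxidant response element bound by NFE2L2. In the lines below, capitals mark the match, and all 4 stretches are on the forward strand of their chromosome.
MTHFD1L CARE, chr6:150866347-150866374: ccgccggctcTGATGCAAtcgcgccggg
MTHFD1L E-box, chr6:150866322-150866347: cgcccggctcCACGTGcgcagccggc
MTHFD1 E-box, chr14:64388328-64388353: agtccctaagCACGTGggttgggttg
MTHFD2 antioxidant element on the opposite strand, chr2:74198611-74198639: ttccctcccgGCGCAGTCAccggcgcggt
The CARE letters occurred in 1 of the 6 genes, while 4.46% of the 27305 genes in the table and 2.51% of the 9393 tested genes among them had a match in any of their windows. The match is a single site of MTHFD1L, which has 4 windows, and it lies in 3 overlapping ones at -129, -90 and 24 bases from their starts. The E-box occurred in 2 of the 6 genes, against 8.77% of all genes and 12.8% of tested genes, and the antioxidant element in 1 of the 6, against 16.1% and 19.6%. Over all 35116 windows, 3.62% held the CARE letters, 7.26% the E-box and 13.3% the antioxidant element. A match is a description of these letters in these windows and does not show that a factor binds there. The sense strand of each siRNA was also searched for in the genes. The longest stretch of the 19 bases of siRNA 1 in any GENCODE transcript of a member was 9 bases (MTHFD1 and MTHFD2). Of the 21 bases of siRNA 2 it was 11 (SHMT1). The opposite strands and genes outside the members were not searched, and whether the siRNAs act on the members directly was not tested.

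In the control libraries the mitochondrial enzymes held both the highest and the lowest levels of the 9. The order of mean FPKM with si-NC was SHMT2 at 279, MTHFD2 at 166, PSAT1 at 105, PHGDH at 98.2, MTHFD1L at 58.8, MTHFD1 at 56.1, PSPH at 37.0, SHMT1 at 9.30 and ALDH1L2 at 1.44. No neighbours in this order overlapped between libraries, although PSAT1 was only 1.07 times PHGDH and MTHFD1L only 1.05 times MTHFD1. With siRNA 1 the order became SHMT2, MTHFD1, MTHFD2, MTHFD1L, PHGDH, PSAT1, PSPH, SHMT1 and ALDH1L2, and the libraries of MTHFD1L and PHGDH overlapped. With siRNA 2 the order was the same, and PSAT1 and PSPH were the neighbours that overlapped. MTHFD1, sixth in the control libraries, was thus second to SHMT2 with both siRNAs. Leaving out ALDH1L2, the SD between libraries of a group was 0.301% to 8.20% of the mean.

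**Figure D1:**
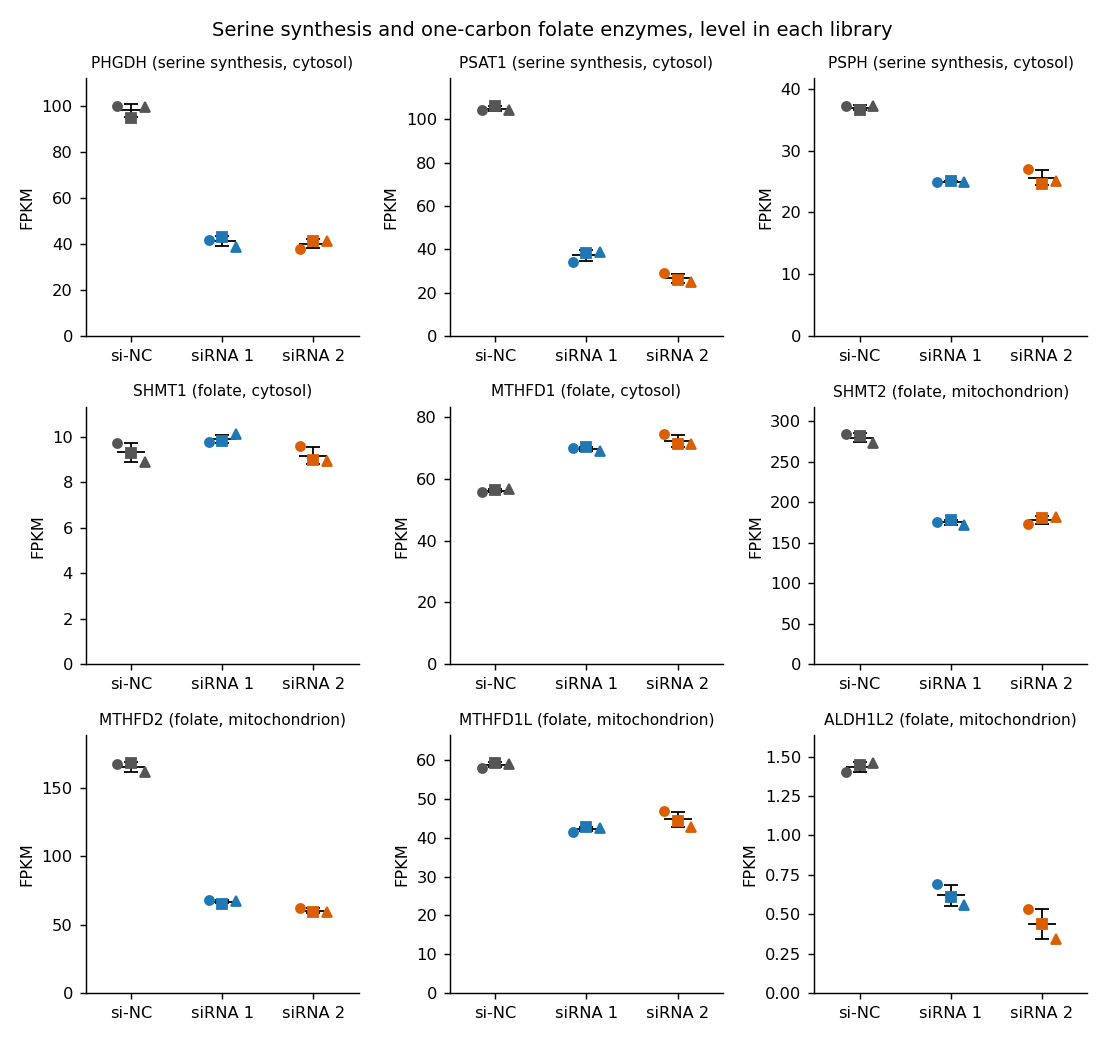
FPKM (vertical axis, from 0) of each of the 9 genes in each library of the 3 groups; circles are the unsuffixed libraries, squares r1 and triangles r2, and the black bars are the mean and SD (n = 3). For 7 genes all 6 siRNA libraries lie below all 3 si-NC libraries, while MTHFD1 lies above and SHMT1 overlaps with siRNA 2.

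The genes of serine synthesis were lower in every siRNA library than in every control. In bulk RNA a lower level in each cell and fewer cells with the RNA cannot be told apart, which holds for all results below. PHGDH, the first enzyme of the pathway (chromosome 1, 120254419 to 120286849 in GRCh37.p13), was at 100.2, 94.9 and 99.7 FPKM in the unsuffixed, r1 and r2 libraries of si-NC. It was at 41.7, 43.1 and 38.9 FPKM with siRNA 1 and at 37.9, 41.2 and 41.3 with siRNA 2. The lowest control library was thus more than 2 times the highest siRNA library, and the 2 siRNA groups overlapped. On the log2(FPKM + 1) scale used for all differences here, PHGDH differed from si-NC by -1.23 (SE 0.0470) with siRNA 1 and by -1.27 (SE 0.0470) with siRNA 2.

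PSAT1 (chromosome 9, 80911991 to 80945009) was the gene with the largest difference of the 9. It was at 104, 106 and 104 FPKM with si-NC, at 34.2, 38.5 and 38.9 with siRNA 1, and at 28.98, 26.04 and 24.72 with siRNA 2. Mean FPKM was 64.6% lower with siRNA 1 and 74.7% lower with siRNA 2, and the log2 differences were -1.47 (SE 0.0611) and -1.94 (SE 0.0611). All 3 siRNA 2 libraries lay below all 3 siRNA 1 libraries. As PHGDH did not separate the siRNAs, the ratio of PSAT1 to PHGDH was 1.07 ± 0.0434 (SD, n = 3) with si-NC, 0.904 ± 0.0905 with siRNA 1 and 0.665 ± 0.0874 with siRNA 2.

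PSPH (chromosome 7, 56078744 to 56119268) had the smallest difference of the serine synthesis genes. It was at 37.2, 36.5 and 37.2 FPKM with si-NC, at 24.9, 25.0 and 25.0 with siRNA 1, and at 27.0, 24.7 and 25.1 with siRNA 2. The groups of both siRNAs overlapped each other and lay below the controls, with log2 differences of -0.55 and -0.52 (SE 0.0360 for both). Summed over PHGDH, PSAT1 and PSPH, the level was 240.2 ± 2.31 FPKM with si-NC, 103 ± 3.01 with siRNA 1 and 92.3 ± 1.43 with siRNA 2.

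The mitochondrial folate enzymes were also lower in every siRNA library, by unequal amounts. SHMT2 (chromosome 12, 57623356 to 57628718), the most abundant of the 9, was at 283, 282 and 273 FPKM with si-NC, at 175, 179 and 172 with siRNA 1, and at 173, 179.9 and 182 with siRNA 2. The siRNA groups overlapped each other, and the log2 differences from si-NC were -0.67 and -0.65 (SE 0.0295). MTHFD2 (chromosome 2, 74425690 to 74442425), the mitochondrial dehydrogenase and cyclohydrolase, was at 167, 168 and 162 FPKM with si-NC, at 67.9, 65.4 and 67.3 with siRNA 1, and at 62.3, 59.3 and 59.0 with siRNA 2. Its log2 differences, -1.297 and -1.447 (SE 0.0318), were larger in size than those of SHMT2.

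MTHFD1L (chromosome 6, 151186815 to 151423023), which releases formate from the mitochondrial pathway, was at 58.1, 59.3 and 59.1 FPKM with si-NC, at 41.6, 42.7 and 42.6 with siRNA 1, and at 47.0, 44.4 and 42.9 with siRNA 2. Its log2 differences were -0.47 and -0.39 (SE 0.0350), the second just past the fold change of 1.3 (0.38 on the log2 scale) that defines a call. ALDH1L2 (chromosome 12, 105413562 to 105478341) was at 1.4, 1.45 and 1.46 FPKM with si-NC, at 0.69, 0.61 and 0.56 with siRNA 1, and at 0.53, 0.44 and 0.34 with siRNA 2. Its mean of 0.831 FPKM over all libraries was below the filter of 1 FPKM for the fit, so it has no SE. All of its siRNA libraries were below all of its controls, and its mean FPKM was 56.9% lower with siRNA 1 and 69.6% lower with siRNA 2.

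The cytosolic folate enzymes did not share that pattern. SHMT1 (chromosome 17, 18231174 to 18266877) was at 9.72, 9.29 and 8.90 FPKM with si-NC, at 9.77, 9.82 and 10.1 with siRNA 1, and at 9.60, 8.96 and 8.94 with siRNA 2. The siRNA 1 libraries lay just above the controls and the siRNA 2 libraries among them, with log2 differences of 0.08 and -0.02 (SE 0.0436), the second of which became 0.08 after median ratio scaling. MTHFD1 (chromosome 14, 64854759 to 64926725) was the only one of the 9 whose 6 siRNA libraries all lay above the controls. It was at 55.6, 56.3 and 56.6 FPKM with si-NC, at 69.8, 70.1 and 69.0 with siRNA 1, and at 74.2, 71.0 and 71.1 with siRNA 2. Mean FPKM was 24.0% and 28.4% higher, and the log2 differences of 0.31 and 0.36 (SE 0.0275) were under the limit of 0.38. The second was 0.46 after median ratio scaling, while correction for GC content gave 0.21 with siRNA 1 and 0.27 with siRNA 2.

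**Figure D2:**
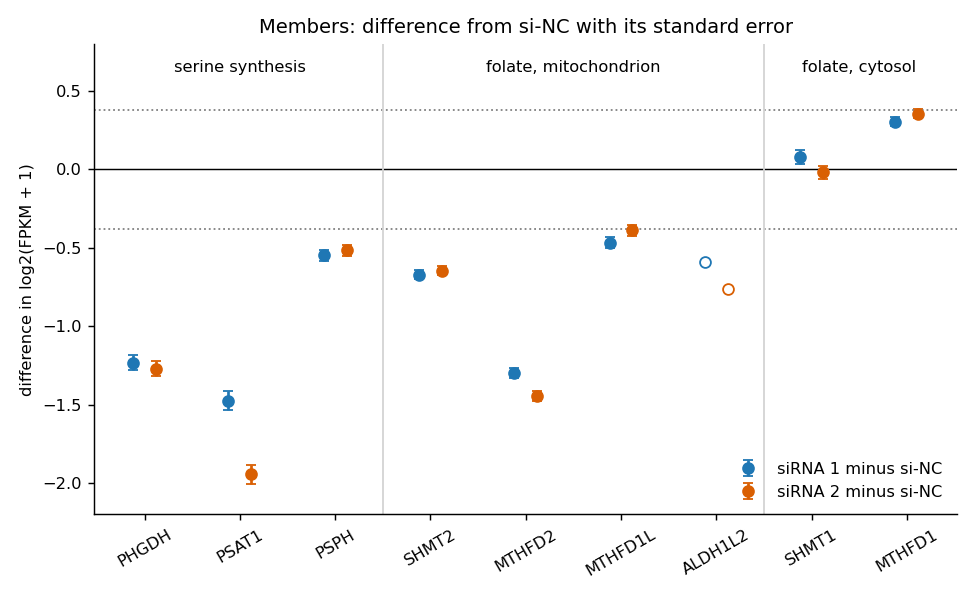
Difference from si-NC in log2(FPKM + 1) (vertical axis) for the 9 genes, grouped by pathway and compartment, for siRNA 1 (blue) and siRNA 2 (orange), with the SE of the fit over 12884 genes. Open circles mark ALDH1L2, which was below the filter, and dotted lines a fold change of 1.3; PSAT1 with siRNA 2 is lowest at -1.94 and MTHFD1 highest at 0.36.

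Set against all genes, 8 of the 9 passed the filter, and 6 of these 8 were called lower (PHGDH, PSAT1, PSPH, SHMT2, MTHFD2 and MTHFD1L) with each siRNA and 0 higher. Among all 12884 tested genes, 15.6% were called lower and 11.1% higher with siRNA 1, and 23.1% lower and 11% higher with siRNA 2. The same 6 had all 3 libraries below all 3 controls, as did ALDH1L2, while 35.1% of tested genes did so with siRNA 1 and 46.1% with siRNA 2. Since the genes were chosen by these comparisons, nothing is read from the counts. The median log2 difference of the 8 was -0.61 with siRNA 1, beside 0.00316 over all tested genes, and -0.58 with siRNA 2, beside -0.10. PSAT1 lay at percentile 0.450 of all tested genes with siRNA 1 and 0.179 with siRNA 2, and MTHFD1 at percentiles 83.8 and 87.8. The siRNA comparisons share the si-NC libraries and are not independent of each other. With median ratio scaling in place of FPKM as deposited, 53.2% of the calls with siRNA 2 were lower instead of 67.8%, and MTHFD1L, at -0.28, was no longer called.

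**Figure D3:**
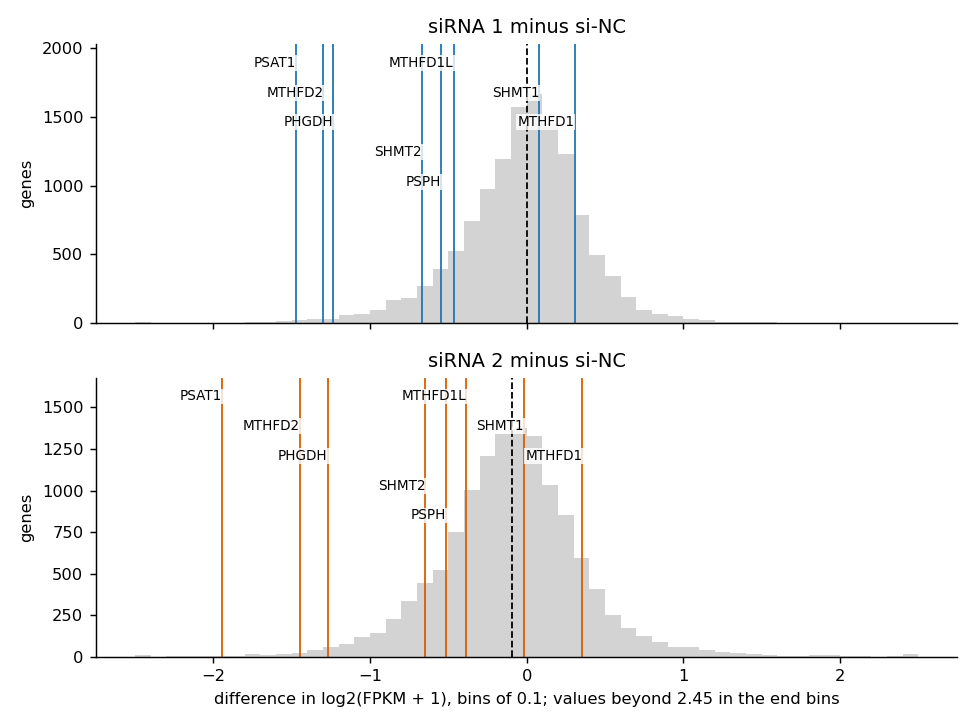
Number of tested genes (vertical axis) by difference from si-NC in log2(FPKM + 1) (horizontal axis, bins of 0.1), for siRNA 1 above and siRNA 2 below, with the 8 tested members as coloured lines and the median of all genes dashed. The lines of 6 genes lie between -1.94 and -0.39, PSAT1 farthest left, and MTHFD1 lies to the right at 0.31 and 0.36.

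The mitochondrial and cytosolic folate enzymes were next set against each other within each library. The mean log2(FPKM + 1) of SHMT2, MTHFD2, MTHFD1L and ALDH1L2 minus that of SHMT1 and MTHFD1 was 1.05, 1.09 and 1.09 with si-NC. It was 0.15, 0.13 and 0.10 with siRNA 1 and 0.09, 0.12 and 0.08 with siRNA 2. The difference from si-NC was -0.95 with siRNA 1 and -0.98 with siRNA 2, against an SD between libraries of a group of 0.0203, and the siRNA groups overlapped each other. It was smallest with the SHMT pair alone, at -0.75 and -0.63. No test is given, because the genes were selected on the same comparison.

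Summed FPKM of the mitochondrial enzymes was 506 ± 8.93 with si-NC, 285 ± 2.41 with siRNA 1 and 284 ± 1.07 with siRNA 2 (SD, n = 3), and that of the cytosolic enzymes was 65.5 ± 0.170, 79.5 ± 0.416 and 81.3 ± 2.21. The ratio of these sums was 7.72 ± 0.138 with si-NC, 3.58 ± 0.0115 with siRNA 1 and 3.49 ± 0.107 with siRNA 2. The ratio of MTHFD2 to MTHFD1 was 3.01, 2.99 and 2.86 in the control libraries, 0.974, 0.933 and 0.976 with siRNA 1, and 0.839, 0.835 and 0.830 with siRNA 2. In FPKM, MTHFD2 was thus above its cytosolic counterpart in all controls and below it in all siRNA libraries. Which of these genes lies above the other depends on the lengths assigned to them. MTHFD1L also passed from above MTHFD1 (1.05 ± 0.00473) to below it (0.608 ± 0.0105 and 0.621 ± 0.0150). SHMT2 remained far above SHMT1 throughout, at a ratio of 30.1 ± 0.792 with si-NC, 17.7 ± 0.594 with siRNA 1 and 19.5 ± 1.3 with siRNA 2.

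**Figure D4:**
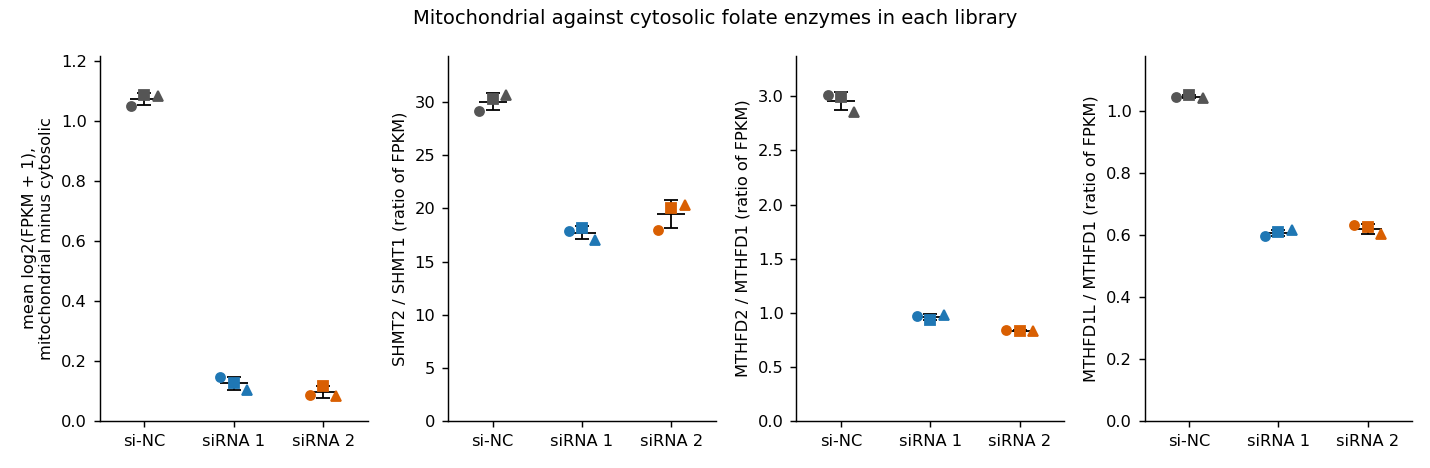
Mitochondrial against cytosolic folate enzymes in each library of the 3 groups: difference of mean log2(FPKM + 1), and the ratios of FPKM of SHMT2 to SHMT1, MTHFD2 to MTHFD1 and MTHFD1L to MTHFD1 (vertical axes, from 0), with symbols as circles (unsuffixed), squares (r1) and triangles (r2) and bars for mean and SD (n = 3). In each panel the 3 si-NC libraries lie above all 6 siRNA libraries.

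Whether the siRNAs differed from each other is not the comparison described as selecting the genes, and it was tested with limma over all 12884 genes. It uses the same siRNA libraries as the selection, so its P values may not be independent of it. PSAT1 was lower with siRNA 2 than with siRNA 1, by -0.47 (SE 0.0611, adjusted P = 0.00034). It was the single member called of 8, while 5.45% of all tested genes were called lower and 2.19% higher. The call depended on scaling: after median ratio scaling, which also turned the share of lower calls over all genes from 71.3% to 38.0%, the PSAT1 difference was -0.37 and fell short of the fold limit. MTHFD2 was lower with siRNA 2 by -0.15 (SE 0.0318, adjusted P = 0.0044), less than the fold limit, and by -0.04 (unadjusted P = 0.21) after median ratio scaling. For the other 6 the adjusted P ranged from 0.089 to 0.54 with FPKM as deposited. After median ratio scaling, MTHFD1 was higher with siRNA 2 by 0.16, MTHFD1L by 0.18, SHMT2 by 0.13 and PSPH by 0.14, all under the fold limit. The unadjusted P of these differences in limma was 0.00036, 0.00048, 0.0017 and 0.0056, in that order. With FPKM as deposited, the 95% intervals of the log2 difference were -0.14 to 0.07 for PHGDH, -0.05 to 0.11 for PSPH, -0.04 to 0.09 for SHMT2, -0.01 to 0.11 for MTHFD1, 0.000878 to 0.16 for MTHFD1L and -0.20 to -0.00257 for SHMT1, while the median of all genes was -0.08.

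The 33 other genes of serine, glycine and folate metabolism were read in the same fit. Their list was made with earlier results of these data known. P values of these genes against si-NC therefore describe the fit and are not independent support. Of these, 27 passed the filter. With siRNA 1, 2 were called lower and 2 higher, and with siRNA 2, 8 were called lower and 0 higher. Over all tested genes the shares were 15.6% lower and 11.1% higher with siRNA 1, and 23.1% and 11% with siRNA 2. The calls among the 27 genes all held at an adjusted P of at most 0.05. Their median log2 difference was 0.00446 with siRNA 1 and -0.11 with siRNA 2, near that of all tested genes. Only SLC1A4 and FPGS were called in the same direction with both siRNAs.

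SLC1A4, a neutral amino acid transporter that carries serine, was at 6.73, 6.79 and 6.68 FPKM with si-NC, at 2.44, 2.65 and 2.77 with siRNA 1, and at 2.10, 2.17 and 2.01 with siRNA 2. Its log2 differences were -1.10 and -1.32 (SE 0.05, adjusted P = 1.1e-07 and 1.9e-08). FPGS, which adds glutamates to folates and so retains them in the cell, was at 26.2, 24.8 and 26.9 FPKM with si-NC, at 17.5, 17.4 and 16.5 with siRNA 1, and at 14.7, 17.8 and 17.7 with siRNA 2. Its differences of -0.57 and -0.61 (SE 0.0673, adjusted P = 4.4e-05 and 2.3e-05) became -0.23 and -0.33 after correction for GC content and were then no longer called. The GC content of its transcript, 63.8%, exceeded that of 94.4% of tested genes.

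The remaining calls were made with 1 siRNA only, and the difference between the siRNAs is given for each gene named. Since these genes were picked on values of the same libraries, the P values of that difference are a description. With siRNA 1, FOLR1, the folate receptor, rose by 0.48 (SE 0.0526, adjusted P = 2.8e-05), from 69.3 ± 2.32 to 97.2 ± 4.40 FPKM. With siRNA 2 it was at 88.6 ± 6.28 FPKM, a difference from si-NC of 0.35 that passed the limit after median ratio scaling (0.45) and without library r1 of siRNA 2 (0.39), and the siRNAs differed with an adjusted P of 0.062. GCSH, the lipoate-carrying protein of the glycine cleavage system, was at 50.0, 48.7 and 46.3 FPKM with si-NC, at 63.1, 65.8 and 65.4 with siRNA 1, and at 44.6, 45.1 and 44.8 with siRNA 2. It rose by 0.41 with siRNA 1 (SE 0.0340, adjusted P = 4.2e-06), or by 0.31 and uncalled after GC correction. With siRNA 2 it differed from si-NC by -0.11, or by -0.0017 after median ratio scaling, and siRNA 2 was lower than siRNA 1 by -0.52 (adjusted P = 8e-06). As 14.2% of its 100-base windows also occur in another gene, its reads may be divided.

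With siRNA 2 the calls beside SLC1A4 and FPGS included SARDH at -0.63 (-0.39 after GC correction), DLD at -0.50, SLC46A1 at -0.46, SLC25A32 at -0.44 and SLC1A5 at -0.71. SARDH oxidizes sarcosine, DLD is a subunit of glycine cleavage shared with other complexes, SLC46A1 and SLC25A32 carry folate into the cell and into mitochondria, and SLC1A5 imports glutamine and other neutral amino acids. With siRNA 1 the same genes differed from si-NC by -0.38, -0.29, -0.19, -0.08 and -0.36, in that order. The siRNAs themselves differed by -0.26 for SARDH (adjusted P = 0.011), -0.22 for DLD (0.0040), -0.27 for SLC46A1 (0.018) and -0.36 for SLC25A32 (0.0025), all under the fold limit. SLC25A32 shares 87.7% of its windows with an overlapping gene and was not called after median ratio scaling (-0.35). SLC1A5, the most abundant of the 33, was at 413 ± 16.9 FPKM with si-NC, 322 ± 6.88 with siRNA 1 and 253 ± 8.35 with siRNA 2, and siRNA 2 was lower than siRNA 1 by -0.35 (adjusted P = 0.00011), under the fold limit. Such differences between the siRNAs were common. With no fold limit, 5062 of all 12884 tested genes were lower with siRNA 2 at an unadjusted P of at most 0.05 in limma. The median difference of all tested genes was -0.08, and median ratio scaling raised it by 0.09.

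By function, the 9 tested cytosolic folate enzymes other than the members held 0 calls with siRNA 1 and 1, lower, with siRNA 2. Over all tested genes, 15.6% were called lower and 11.1% higher with siRNA 1, and 23.1% and 11% with siRNA 2. TYMS, GART and ATIC of nucleotide synthesis differed by -0.22 to 0.15. The 3 tested mitochondrial folate enzymes other than the members held 0 calls with siRNA 1 and 1, SARDH, lower with siRNA 2. Their median log2 differences were 0.04 and -0.10, beside 0.00316 and -0.10 over all tested genes. MTFMT differed by 0.04 and -0.10 and was not called. MTHFD2L, a paralog of MTHFD2, was at 1.05 ± 0.0666 FPKM with si-NC, 1.29 ± 0.131 with siRNA 1 and 0.980 ± 0.0819 with siRNA 2, and was not called. GLDC, the decarboxylase of glycine cleavage, was at 0.05 FPKM or less in every library, and the lowest values of AMT and DLD were 8.66 and 17.4 FPKM. DMGDH, below the filter, was at 0.49, 0.67 and 0.45 FPKM with si-NC, at 0.08, 0.16 and 0.12 with siRNA 1, and at 0.08, 0.12 and 0.20 with siRNA 2, so neither siRNA group overlapped the controls.

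**Figure D5:**
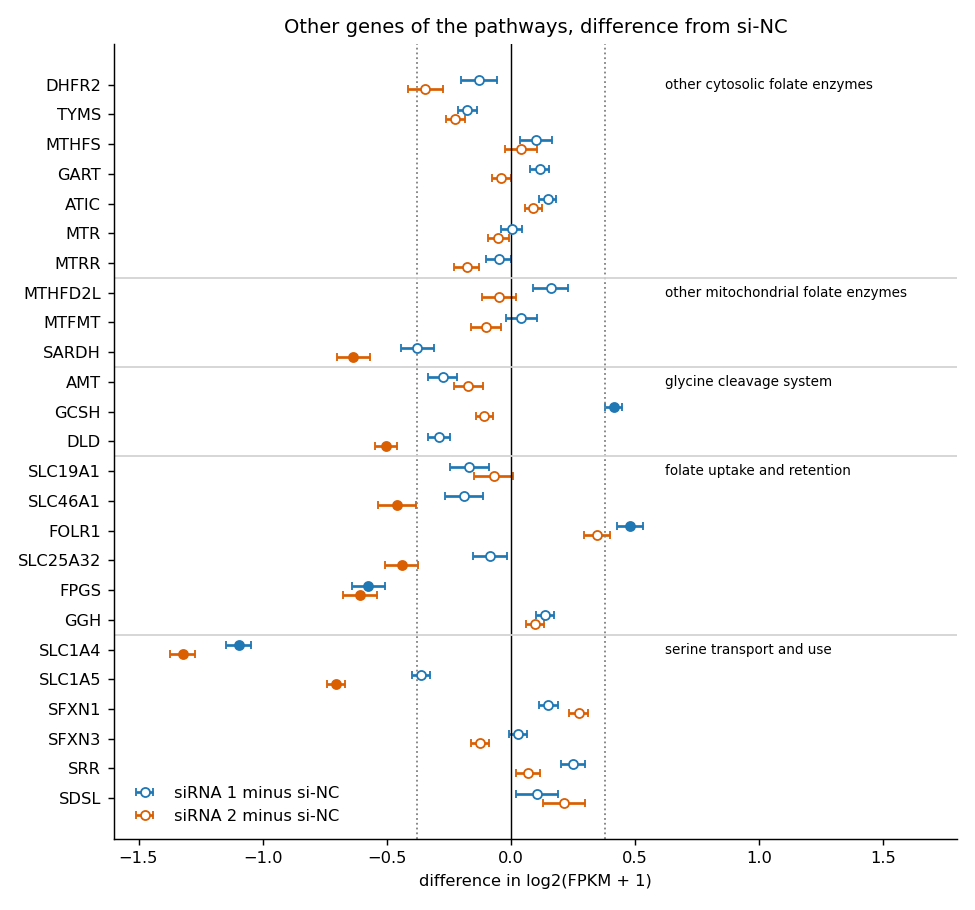
Difference from si-NC in log2(FPKM + 1) (horizontal axis, with SE) for 25 of the 27 tested other pathway genes, by function, for siRNA 1 (blue) and siRNA 2 (orange). Filled symbols are called genes, dotted lines a fold change of 1.3; SLC1A4 lies lowest with both siRNAs, at -1.10 and -1.32.

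Of the transcription factors whose elements were searched for above, ATF4 mRNA was at 367, 354 and 353 FPKM with si-NC, at 283, 272 and 279 with siRNA 1, and at 296, 295 and 299 with siRNA 2. Its log2 differences of -0.36 and -0.27 (SE 0.0258, adjusted P = 1.7e-06 and 7.9e-06) were under the fold limit, and all siRNA libraries lay below all controls. MYC differed by -0.06 (adjusted P = 0.18) with siRNA 1 and by -0.25 (adjusted P = 0.00011) with siRNA 2, and NFE2L2 by 0.10 and 0.01 (adjusted P = 0.090 and 0.93). None of the 3 was called. They too were listed with earlier results of these data known, so their P values are a description. The mRNA level of ATF4 does not measure its protein, which is regulated in translation.

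Finally, the genes most like SHMT2 and SHMT1 across the 9 libraries were looked for among 11403 tested known genes, as a description with no test, since the libraries fall into 3 groups and share their scaling. The closest to SHMT2 by Pearson's r of log2(FPKM + 1) were CIZ1 (0.998), PYCR1 (0.998) and ERP29 (0.998). PYCR1, a mitochondrial enzyme of proline synthesis, had a mean of 126 FPKM with si-NC, 54.2 with siRNA 1 and 54.7 with siRNA 2. In all, 1001 genes, SHMT2 and members included, had an r over 0.95 with SHMT2, so such likeness is common in these data. Among the members r with SHMT2 was 0.954 to 0.996 for PHGDH, PSAT1, PSPH, MTHFD2 and MTHFD1L, -0.285 for SHMT1 and -0.983 for MTHFD1. The closest to SHMT1 were C7orf73 (0.957), C18orf54 (0.934) and RBM23 (0.922), and 2 genes, SHMT1 included, had an r over 0.95 with it.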

How the data were processed

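The authors sequenced the libraries on the BGISEQ-500 platform and deposited 1 table of FPKM per gene and library, rounded to 2 decimals. The submitters' processing notes name Bowtie2, version 2, and GRCh37.p13, and the counting tool is not given in the sources used here. FPKM divide by library size and gene length, so a change in a few abundant genes moves all others. The deposited log2 ratios, p-values and q-values of the authors' own comparisons were not used. A second copy of the FPKM was equal to the first, and 4 lines without values were left out. LINC00673 and a few listed genes are not reported here.

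Genes had to average 1 FPKM or more over the libraries, which left 12884, and their log2(FPKM + 1) was fitted with limma version 3.58.1 in R version 4.3.3 (trend, all 9 libraries, group as the only factor). A call is a fold change of at least 1.3 with an unadjusted P of at most 0.05, the study's criteria, and adjusted P is by Benjamini-Hochberg over all tested genes. On this scale changes of low genes are understated. Of the other pathway genes, up to 12 called in the same direction with both siRNAs were to be named, with ATF4, MYC, NFE2L2 and the 3 genes most like SHMT2 and SHMT1. The others named were chosen after their values were seen, among them other called genes. The members and lists were chosen with earlier results of these data known.

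Depth was estimated from genes of 300 to 900 bases, after taking 90 bases off each length. The mean distance of the values from whole fragments was 0.112 to 0.135, so counts were not rebuilt. GC content and shared windows came from GENCODE release 29 transcripts. The fit was tested on simulated data. Alternatives were another pseudocount (0.1), other filters, limits and adjusted P, median ratio scaling, GC correction, the replicate block, only the groups compared and each library left out. Python 3.11.15 with pandas 2.3.3 and matplotlib 3.10.9 was used.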

Additional observations from a re-analysis of the deposited data

Results flagged for a closer look

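With FPKM as deposited, 2 genes among the members and the other pathway genes differed between the siRNAs. The difference itself was tested, with the fold limit and an adjusted P of at most 0.05. Tested were 8 members and 27 other pathway genes, while 951 of all 12884 tested genes were called in this way. The count is therefore not read as a result about these genes, and the cause of the differences was not tested. PSAT1 was lower with siRNA 2 than with siRNA 1 by -0.47 on the log2(FPKM + 1) scale (limma, adjusted P = 0.00034), with all 3 libraries of siRNA 2 below all 3 of siRNA 1, although it was below si-NC with both. After median ratio scaling the difference was -0.37 and under the fold limit, so this call depends on the scaling. GCSH differed by -0.52 (adjusted P = 8e-06), and by -0.42 after median ratio scaling. Its 3 libraries of siRNA 1 lay above si-NC, by 0.41, or 0.31 and uncalled after GC correction. With siRNA 2 it was -0.11 from si-NC with FPKM as deposited and -0.0017 after median ratio scaling. Groups of 3 libraries are too small for a check of single libraries that stand apart.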

How the results depend on the processing

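The number of members called lower with siRNA 1 was 6 under every alternative but 2, and with siRNA 2 it was 5 to 7 under all but 1. With no filter it was 7 with each, ALDH1L2 included, and with a fold change of at least 2 it was 3 with each (PHGDH, PSAT1 and MTHFD2). Leaving out each library in turn gave 6 to 6 with siRNA 1 and 5 to 6 with siRNA 2, where MTHFD1L lost its call without library r2 of siRNA 2. The number of members called between the siRNAs, 1, was 0 after median ratio scaling or at a fold change of at least 2 and 4 with no fold limit. The other pathway genes called, 4 with siRNA 1 and 8 with siRNA 2, were 18 and 20 with no fold limit, 1 and 1 at a fold change of at least 2, and 3 with siRNA 2 at a mean of at least 5 FPKM, where 15 were tested. The mitochondrial minus cytosolic difference (-0.95 with siRNA 1 and -0.98 with siRNA 2) was -1.09 and -1.18 with a pseudocount of 0.1, -0.97 and -0.96 after GC correction, -0.75 and -0.63 for SHMT2 and SHMT1 alone, and -1.01 with siRNA 1 without ALDH1L2. Without each library it was -0.96 to -0.94 and -0.99 to -0.97. Over all genes, calls with siRNA 1, siRNA 2 and between them were 3436, 4385 and 984. They were 366, 604 and 40 at a fold change of at least 2, 8724, 9396 and 6697 with no fold limit, and 2211, 2714 and 547 at a mean of at least 5 FPKM. With a pseudocount of 0.1 there were 1656 between the siRNAs. The replicate labels did not pair the libraries: deviations of libraries with the same label correlated by -0.239 to 0.104. With the replicate block, members called were 6 and 6, and 1 between the siRNAs, other pathway genes 4 and 8, and all genes 3449, 4400 and 988. The causes of these changes were not tested. With 3 libraries a group, an exact permutation test cannot go below 0.10, so single values rest on the spread shared across genes. ALDH1L2, at 61 to 300 fragments, has the least depth of the members.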
